A study of Homo sapiens with 9 samples.

Results

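Myoblast fusion proteins and their adhesion partners were followed in the human embryonal rhabdomyosarcoma cell line RD after partial depletion of the GATA-type zinc finger repressor TRPS1. The set held 10 genes chosen by symbol among 60676 gene identifiers: the membrane fusion proteins MYMK (myomaker) and MYMX (myomixer), the transmembrane protein TMEM182, the junctional adhesion molecules JAM2 and JAM3, the nephrin family proteins KIRREL1 and NPHS1 (nephrin), the paired receptors BOC and CDON, and the neural cell adhesion molecule NCAM1. All 10 were found, and 9 passed the filter on low counts that left 17014 genes for testing; NPHS1 did not. The groups were RD cells with the doxycycline-inducible hairpin shTRPS1#1, RD cells with a separate hairpin, shTRPS1#2, and RD cells with a non-targeting hairpin, shNT, with 3 libraries in each. All 3 groups received 1 µM doxycycline for 2 days in growth medium (10% fetal bovine serum) and 10 days in differentiation medium (2% horse serum), so no group shows untreated or proliferating cells. The same parental tumour line carried every hairpin, and the labels do not tie the libraries to separate cultures. The p-values therefore reflect spread among these libraries only, which may be technical.

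Skeletal muscle fibres form when mononucleated myoblasts leave the cell cycle, adhere to one another and merge their membranes. Myomaker, a multipass membrane protein, and myomixer, a micropeptide, are the muscle-specific fusogens: in mouse work, myomaker acts in the mixing of the outer membrane leaflets and myomixer in the opening of the fusion pore. Adhesion precedes this step, through cadherins, which are not among these genes, and through immunoglobulin-type proteins such as those described here. Rhabdomyosarcoma cells express many myogenic factors yet fuse and differentiate poorly.

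The libraries held 21965744 to 23289062 counted reads each. TRPS1 mRNA was at 57.8 ± 3.42 CPM with shTRPS1#1 and 57.4 ± 1.39 CPM with shTRPS1#2, against 73.5 ± 3.29 CPM with shNT (CPM, counts scaled to library totals with TMM factors; SD, n = 3 each). This was 78.6% of the shNT level for shTRPS1#1 (edgeR adjusted p = 2.27e-08) and 78.0% for shTRPS1#2 (edgeR adjusted p = 1.02e-08), so every comparison rests on a partial loss of the mRNA. The labelled rhabdomyosarcoma identity was checked against muscle markers: all 12 skeletal muscle markers were detected in every group, with a summed level of 10071.9 to 10246.2 CPM with shTRPS1#1, 10169.7 to 10995.0 CPM with shTRPS1#2 and 6642.2 to 7037.9 CPM with shNT. They rose with TRPS1 depletion, 12 of 12 for shTRPS1#1 and 11 of 12 for shTRPS1#2 (median log2 fold change 0.47 and 0.48, called at an edgeR adjusted p under 0.05). Among all genes tested, 7.1% were higher with shTRPS1#1 and 9.01% with shTRPS1#2, and the medians were 0.0011 and -0.01. Fibroblast-type markers, 8 genes led by COL1A1, LUM and DCN, summed to 2440.0 to 2477.6 CPM with shTRPS1#1, 2117.3 to 2171.1 CPM with shTRPS1#2 and 2244.9 to 2332.1 CPM with shNT, with calls in both directions. Immune markers summed to at most 0.585 CPM, endothelial markers to at most 6.75 CPM and epithelial markers to at most 9.55 CPM in any library, with CD3E and KRT19 at 0 throughout. The part these shifts play in the changes below was not tested, and in bulk RNA more cells of a kind and more RNA per cell cannot be told apart.

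Of the 9 fusion genes tested, 7 were called with shTRPS1#1, where 13.4% of all genes tested were called. Of these, 4 were higher (7.1% of all genes tested) and 3 lower (6.33%). With shTRPS1#2, 6 were called where 18.9% of all genes tested were: 3 higher (9.01%) and 3 lower (9.87%). The same 6 genes were called with the same sign by both hairpins, against 5.83% of all genes tested. MYMK, TMEM182 and NCAM1 rose (3.46% of all genes rose in both) and MYMX, BOC and CDON fell (2.37% fell in both). Calls of opposite sign by the hairpins, which 1.02% of all genes had, were not made for any of the 9 in edgeR or the alternatives. Both contrasts share the shNT libraries, and the genes were chosen with earlier results known. The shares over all genes were not matched for expression level. With shNT the 9 genes lay between the 57.6 (JAM2) and 98.6 (JAM3) percentile of tested genes by RPKM. Between the hairpins 3 of the 9 differed, 2 higher and 1 lower with shTRPS1#2 than with shTRPS1#1, where 19.6% of all genes tested did (8.9% higher, 10.7% lower). The median log2 fold change of the 9 genes was 0.01 with shTRPS1#1 and -0.06 with shTRPS1#2, beside 0.0011 and -0.01 over all genes tested, so the set had no common direction.

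**Figure D1:**
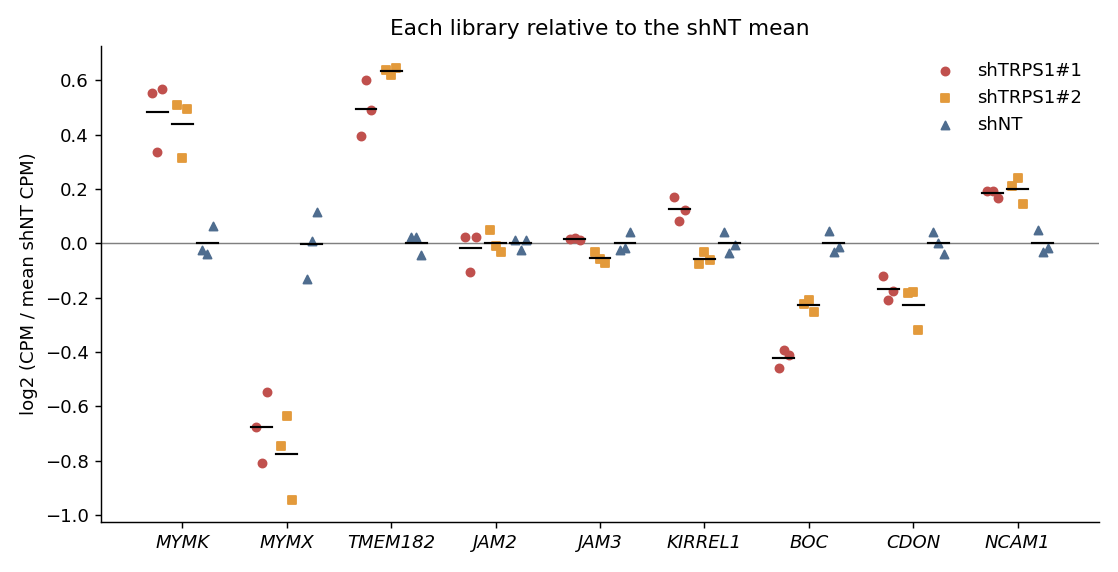
Log2 ratio of each library's CPM to the mean shNT CPM (y axis) for the 9 fusion genes that passed the count filter (x axis); each symbol is a library and each black bar the mean of 3 libraries. With both hairpins MYMK, TMEM182 and NCAM1 lie above the shNT libraries and MYMX, BOC and CDON below them, with no overlap, while JAM2 lies around 0 in every group. JAM3, which was not called, also lies wholly below shNT with shTRPS1#2. The share of all genes whose libraries separate in this way was not computed.

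The level of the genes per length spanned a wide range. In RPKM, the authors' read density per gene length and library total, JAM3 was the most abundant gene of the set in every group, at 95.2 ± 0.506 with shTRPS1#1, 91.6 ± 1.27 with shTRPS1#2 and 93.3 to 97.4 with shNT (range of 3 libraries). NCAM1 and MYMK followed: with the hairpins they lay within each other's spread (43.6 ± 0.545 and 42.8 ± 3.66 RPKM with shTRPS1#1, 44.5 ± 1.35 and 41.8 ± 3.27 RPKM with shTRPS1#2), whereas with shNT NCAM1 was at 38.7 ± 1.1 RPKM and MYMK at 30.7 ± 1.05 RPKM. CDON and KIRREL1 were neighbours that did not differ beyond their spread with shNT (26.9 ± 0.782 and 26.2 ± 0.637 RPKM), and BOC and MYMX overlapped there too (20.8 to 21.8 and 18.3 to 21.5 RPKM). Below these came TMEM182, at 7.41 ± 0.215 RPKM with shNT, and JAM2, at 5.52 ± 0.054 RPKM. With shTRPS1#2, MYMX (11.7 ± 1.19 RPKM) and TMEM182 (11.5 ± 0.157 RPKM) were at levels that did not differ beyond their spread.

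**Figure D2:**
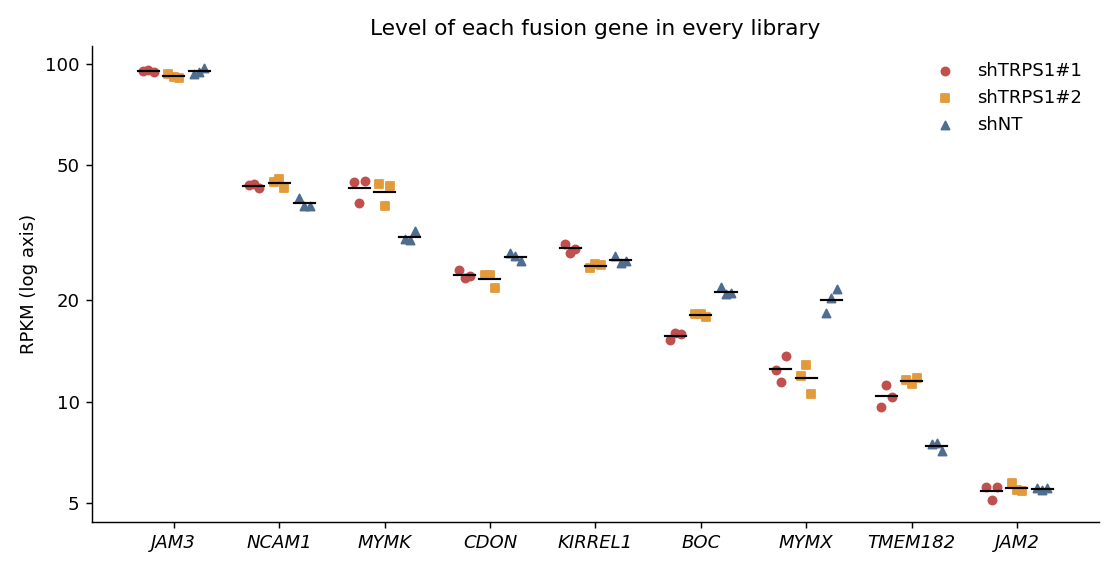
RPKM on a log axis for each gene in every library, ordered by the shNT mean; symbols are libraries and bars are means of 3. JAM3 stands near 95 RPKM with shTRPS1#1 and shNT and at 90.8 to 93.1 RPKM with shTRPS1#2. JAM2 stands near 5.5 RPKM in every group, and the gap between MYMK and MYMX is wider with both hairpins than with shNT.

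The fusogens moved apart. MYMK (ENSG00000187616, chromosome 9, 133514586 to 133528612, minus strand, GRCh38), the myomaker gene, was at 46.0, 39.5 and 46.4 CPM in the shTRPS1#1 libraries and 44.6, 38.9 and 44.1 CPM in the shTRPS1#2 libraries, against 30.8, 30.5 and 32.7 CPM in the shNT libraries. Every hairpin library was above every shNT library. Library 2 was the lowest of its group in every group, though only narrowly with shNT. The log2 fold change for shTRPS1#1 was 0.49 ± 0.06 (SE; edgeR adjusted p = 2.15e-09) and that for shTRPS1#2 was 0.44 ± 0.06 (edgeR adjusted p = 3.36e-08).

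MYMX (ENSG00000262179, chromosome 6, 44216939 to 44218236, plus strand), the myomixer gene, went the other way. It had 239, 217 and 271 reads in the shTRPS1#1 libraries and 224, 244 and 200 reads in the shTRPS1#2 libraries, against 356, 389 and 422 reads in the shNT libraries. The hairpin libraries overlapped one another and lay wholly below shNT. In scaled counts the groups averaged 10.7 ± 0.983 CPM with shTRPS1#1 and 10.0 ± 1.05 CPM with shTRPS1#2, against 17.1 ± 1.42 CPM with shNT (SD, n = 3 each). MYMX fell by 0.67 on the log2 scale with the first hairpin (SE 0.08, edgeR adjusted p = 6.08e-09) and by 0.77 with the second (SE 0.08, edgeR adjusted p = 1.72e-10), to 62.9% and 58.5% of its shNT level, the largest change of the 9 tested genes with each hairpin. It was also the least counted of them.

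The balance of the pair shifted accordingly. The RPKM of MYMK divided by that of MYMX was 3.59, 3.38 and 3.31 in the shTRPS1#1 libraries and 3.67, 2.97 and 4.15 in the shTRPS1#2 libraries, against 1.65, 1.48 and 1.48 in the shNT libraries. The lowest ratio with a hairpin was thus well above the highest with shNT. An exact permutation test on the log2 ratio gave p = 0.1 for each hairpin (Benjamini-Hochberg adjusted p = 0.15 over 6 ratio tests). With 3 libraries against 3, 0.1 is the smallest value possible, so this test could not pass 0.05. Neither fusogen was called between the hairpins: the log2 difference of shTRPS1#2 from shTRPS1#1 was -0.05 for MYMK (95% interval -0.16 to 0.06, edgeR adjusted p = 0.604) and -0.10 for MYMX (95% interval -0.28 to 0.07, edgeR adjusted p = 0.482).

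**Figure D3:**
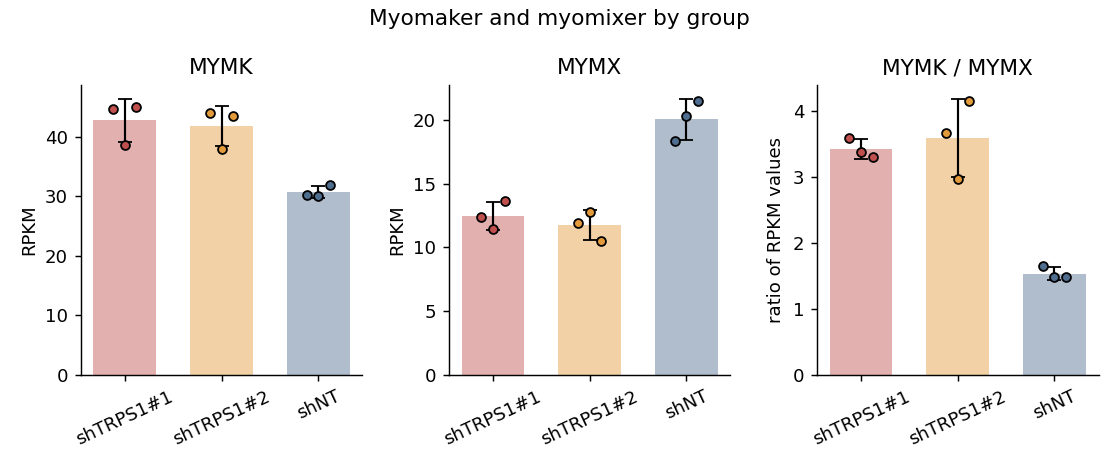
RPKM of MYMK (left) and MYMX (middle) and their ratio (right) by group; bars are means, error bars SD and points the 3 libraries. MYMK averages 42.8 and 41.8 RPKM with shTRPS1#1 and shTRPS1#2 and 30.7 RPKM with shNT, MYMX 12.5 and 11.7 RPKM with the hairpins and between 18.3 and 21.5 RPKM with shNT, and the ratio averages 3.43, 3.6 and 1.54.

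Of 13 transcription factors listed as candidate regulators of the fusogen genes in muscle, 11 were measured. Whether each acts on MYMK or MYMX in these cells was not tested. With shTRPS1#1, 4 of them rose, where 7.1% of all genes tested were higher. With shTRPS1#2 the counts were 3 higher and 1 lower, where 9.01% of all genes tested were higher and 9.87% lower. Across the alternatives 4 to 6 rose with shTRPS1#1 and the counts for shTRPS1#2 did not move. MEF2C, a partner of the myogenic factors, rose with both hairpins (0.46 ± 0.03 and 0.59 ± 0.03, log2 ± SE), as did MYOG (myogenin; 0.19 ± 0.04 and 0.20 ± 0.04), which activates both fusogen genes in mouse muscle, and SMAD3 (0.18 ± 0.04 and 0.15 ± 0.04), which carries TGF-beta signals. MYOD1, the myogenic master regulator, passed the test for shTRPS1#1 alone (0.20 ± 0.04, against 0.04 ± 0.04 for shTRPS1#2), and its E-protein partner TCF12 fell in shTRPS1#2 alone (-0.05 ± 0.03 for shTRPS1#1, -0.17 ± 0.03 for shTRPS1#2). Both were lower with shTRPS1#2 than with shTRPS1#1 (MYOD1 -0.16 ± 0.04 and TCF12 -0.12 ± 0.03; edgeR adjusted p = 0.00554 and 0.00805). The others, MEF2A, MEF2D, SRF, TCF3, SMAD2 and NFATC2, lay between -0.10 and 0.11 and were not called, and the myogenic factors MYF5 and MYF6, with 1 and 52 reads in all 9 libraries, did not pass the filter. The list's median log2 fold change was 0.07 and 0.04, beside 0.0011 and -0.01 over all genes tested. MEF2C, MYOG and SMAD3 thus changed with both hairpins in the direction of MYMK, opposite to MYMX. With each hairpin 7 of the 11 were not called, and TCF12 fell with shTRPS1#2, as MYMX did.

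The genes whose levels followed each fusogen most closely over the 9 libraries were found among 12693 genes by the Pearson correlation of log2 CPM, as a description that reflects the group means these genes share. For MYMK they were the integrin subunit ITGB6 (r = 0.978), the cadherin-linked catenin CTNNA1 (r = 0.974) and the metabolic enzyme GRHPR (r = 0.962). ITGB6 rose with both hairpins (0.93 ± 0.11 for shTRPS1#1 and 0.72 ± 0.11 for shTRPS1#2, but 0.49 and 0.38 in limma on log2(RPKM + 1), where the pseudocount shrinks changes of low genes), GRHPR rose less (0.16 ± 0.04 and 0.18 ± 0.04, with no call for shTRPS1#1 once its replicate 3 was left out, edgeR adjusted p = 0.0665), and CTNNA1 was at 0.07 ± 0.03 and 0.08 ± 0.03 and was not called, though most other scalings and tools called it with shTRPS1#2 (adjusted p = 0.0179 with DESeq2). For MYMX they were the mitochondrially encoded cytochrome b MT-CYB (r = 0.983), the Wnt receptor FZD2 (r = 0.972) and the secreted matrix protein OLFML2B (r = 0.970), all of which fell with both hairpins (MT-CYB -0.15 ± 0.03 and -0.16 ± 0.03, FZD2 -0.33 ± 0.03 and -0.42 ± 0.03, OLFML2B -0.23 ± 0.03 and -0.32 ± 0.03). The MT-CYB call for shTRPS1#1 was lost in limma on RPKM (adjusted p = 0.055 and 0.0584).

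TMEM182 (ENSG00000170417, chromosome 2, 102736905 to 103019900, plus strand) encodes a muscle membrane protein that restrains fusion and binds integrin beta 1 in chicken and mouse work. It was at 59.2, 68.3 and 63.2 CPM in the shTRPS1#1 libraries and 70.1, 69.1 and 70.5 CPM in the shTRPS1#2 libraries, against 45.7, 45.7 and 43.7 CPM in the shNT libraries. All 6 hairpin libraries lay above shNT, and the lowest shTRPS1#2 library lay above the highest shTRPS1#1 library. TMEM182 rose by 0.50 ± 0.05 on the log2 scale for shTRPS1#1 (edgeR adjusted p = 3.57e-12) and by 0.63 ± 0.05 for shTRPS1#2 (edgeR adjusted p = 8.43e-16). The difference of shTRPS1#2 from shTRPS1#1 was 0.14 ± 0.04 (edgeR adjusted p = 0.0207), a call that DESeq2 (adjusted p = 0.0637) and limma on RPKM did not make. Leaving out shTRPS1#1 replicate 1, shTRPS1#1 replicate 3 or shTRPS1#2 replicate 1 also ended it (edgeR adjusted p = 0.216, 0.073 and 0.0558). Its integrin partner ITGB1, which the naming rule did not pick, was at 0.01 ± 0.03 and 0.05 ± 0.03 and was not called.

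The annotated start regions of TMEM182 are shown because the gene had the largest rise of the set with shTRPS1#2, and TRPS1 is a factor that binds GATA motifs. RefSeq (GRCh38.p14) gives a pair of start sites, and gene-level counts do not tell which was used. Each line runs 5′ to 3′ from 250 bases before to 50 bases after the start, on the plus strand, with GATA (either strand, so also TATC) and the E-box CANNTG, the motif of myogenic bHLH factors, in capitals. CAGCTG is 1 form of the E-box, and no GATA match overlaps an E-box.
TMEM182, upstream start, chr2:102736685-102736984: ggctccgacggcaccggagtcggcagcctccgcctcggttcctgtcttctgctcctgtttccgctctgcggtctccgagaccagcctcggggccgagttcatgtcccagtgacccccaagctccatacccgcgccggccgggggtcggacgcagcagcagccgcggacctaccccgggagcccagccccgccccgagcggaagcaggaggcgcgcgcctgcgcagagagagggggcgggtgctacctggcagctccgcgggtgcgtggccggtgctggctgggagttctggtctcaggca
TMEM182, downstream start, chr2:102761781-102762080: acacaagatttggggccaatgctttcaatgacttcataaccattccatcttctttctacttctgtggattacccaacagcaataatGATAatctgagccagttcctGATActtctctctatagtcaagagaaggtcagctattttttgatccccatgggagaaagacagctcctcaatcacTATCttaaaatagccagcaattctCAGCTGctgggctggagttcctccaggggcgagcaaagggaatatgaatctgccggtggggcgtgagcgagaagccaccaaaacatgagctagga
The upstream window, with 72.7% G and C, held neither motif. The downstream window, with 45.7% G and C, held 3 GATA matches, beginning at positions -164, -144 and, on the other strand, -69, and 1 E-box, CAGCTG, at -45, with the start base counted as 0. Of 35116 such windows in the table, 49.7% held a GATA match and 9.84% held 3 or more, 68.7% held CANNTG and 17.9% held CAGCTG, so such letters are common. Of the 10 fusion genes, 4 had an entry, with 8 windows: TMEM182, NPHS1, BOC and CDON. The NPHS1 window held 4 E-boxes, 3 of them CAGCTG, and no GATA match, although NPHS1 had only 7 reads in all 9 libraries. Of all windows, 0.205% held 3 or more CAGCTG.

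The junctional adhesion molecules JAM2 and JAM3 bind each other across cell contacts and are needed for fast-muscle fusion in zebrafish. JAM3 (ENSG00000166086, chromosome 11, 134068925 to 134152001) was at 508.6, 510.4 and 507.3 CPM in the shTRPS1#1 libraries and 492.2, 483.6 and 478.6 CPM in the shTRPS1#2 libraries, against 495.5, 497.6 and 518.2 CPM in the shNT libraries. The shTRPS1#2 libraries were all below shNT, though the difference was not called: the log2 fold change was 0.01 with shTRPS1#1 (95% interval -0.05 to 0.07, edgeR adjusted p = 0.842) and -0.06 with shTRPS1#2 (95% interval -0.12 to 0.01, edgeR adjusted p = 0.236). JAM3 shares 8.53% of its exonic bases with NCAPD3 on the other strand, and the strand setting of the counting is not given in the sources used here.

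JAM2 (ENSG00000154721, chromosome 21, 25639272 to 25717562), its counterpart, was at 33.4, 30.5 and 33.4 CPM in the shTRPS1#1 libraries and 34.0, 32.6 and 32.1 CPM in the shTRPS1#2 libraries, against 33.1, 32.3 and 33.1 CPM in the shNT libraries. The 3 groups overlapped. The log2 fold change of JAM2 was -0.01 (95% interval -0.12 to 0.09, edgeR adjusted p = 0.909) with shTRPS1#1 and 0.0042 (95% interval -0.10 to 0.11, edgeR adjusted p = 0.97) with shTRPS1#2. Per length, JAM3 was 17.0 to 18.7 times as abundant as JAM2 in the shTRPS1#1 libraries. The ratio was 16.2 to 16.7 with shTRPS1#2, narrowly below the 16.8 to 17.6 with shNT. The permutation test used for the fusogen ratio gave p = 0.7 for shTRPS1#1 and 0.1 for shTRPS1#2 (adjusted p = 0.84 and 0.15).

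KIRREL1 and nephrin are the vertebrate counterparts of the fly receptors that join founder cells to fusion-competent myoblasts. KIRREL1 (ENSG00000183853, chromosome 1, 157993273 to 158100262) was at 232.2, 218.6 and 224.5 CPM in the shTRPS1#1 libraries and 195.6, 201.9 and 197.9 CPM in the shTRPS1#2 libraries, against 212.4, 201.4 and 205.5 CPM in the shNT libraries. Only the shTRPS1#1 libraries lay clear of shNT. KIRREL1 rose with shTRPS1#1 (0.12 ± 0.03, edgeR adjusted p = 0.00703) and was at -0.06 ± 0.03 with shTRPS1#2 (95% interval -0.12 to 0.01, edgeR adjusted p = 0.276). It was lower with shTRPS1#2 than with shTRPS1#1 (-0.18 ± 0.03, edgeR adjusted p = 4.77e-05). Its rise lost the call on leaving out shTRPS1#1 replicate 1 (edgeR adjusted p = 0.0921) or shNT replicate 2 (edgeR adjusted p = 0.0612).

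NPHS1 (ENSG00000161270, chromosome 19, 35825964 to 35869287), the slit diaphragm protein of kidney podocytes and a fusion receptor in zebrafish and mouse myoblasts, was at the limit of detection. It had 0, 2 and 1 reads in the shTRPS1#1 libraries and 1, 2 and 0 reads in the shTRPS1#2 libraries, against 0, 0 and 1 reads in the shNT libraries. No library passed the 3 reads that a count of 0 allows, which correspond to 0.129 to 0.137 CPM, so no difference was detectable at this depth and no fold is given. This limit covers counting error only. Its exons overlap APLP1 (4.25% of its exonic bases) and its own relative KIRREL2 on the other strand, so even these reads are of uncertain origin.

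BOC and CDON, receptors with immunoglobulin and fibronectin repeats, associate with cadherins to promote myogenic differentiation and also act as co-receptors for Hedgehog ligands. Both fell with both hairpins. BOC (ENSG00000144857, chromosome 3, 113211003 to 113287459) was at 158.5, 166.2 and 164.2 CPM in the shTRPS1#1 libraries and 186.9, 188.7 and 182.8 CPM in the shTRPS1#2 libraries, against 225.2, 213.1 and 216.1 CPM in the shNT libraries. The groups formed 3 separate steps with shTRPS1#1 lowest. BOC fell by 0.42 on the log2 scale for shTRPS1#1 (SE 0.03, edgeR adjusted p = 4.31e-14) and by 0.23 for shTRPS1#2 (SE 0.03, edgeR adjusted p = 6.28e-07), to 74.7% and 85.3% of shNT. The hairpins differed (shTRPS1#2 minus shTRPS1#1, 0.19 ± 0.03, edgeR adjusted p = 2.59e-05). This difference kept its call in all 17 alternative settings. BOC shares 4.97% of its exonic bases with CFAP44 on the other strand, which had 5019 reads in all 9 libraries, against 38349 for BOC.

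CDON (ENSG00000064309, chromosome 11, 125955796 to 126063335, minus strand) was at 261.8, 246.5 and 252.0 CPM in the shTRPS1#1 libraries and 250.6, 251.8 and 228.3 CPM in the shTRPS1#2 libraries, against 292.8, 284.7 and 277.0 CPM in the shNT libraries. The hairpin groups overlapped each other and not shNT. CDON fell by 0.17 for shTRPS1#1 (SE 0.04, edgeR adjusted p = 0.000381) and by 0.23 for shTRPS1#2 (SE 0.04, edgeR adjusted p = 2.29e-06), with no call between the hairpins (shTRPS1#2 minus shTRPS1#1, -0.06, 95% interval -0.13 to 0.01, edgeR adjusted p = 0.299). CDON shares 26.7% of its exonic bases with VSIG10L2 on the other strand, which had 18 reads in all 9 libraries against 52852 for CDON. The RPKM of CDON over that of BOC was 1.61, 1.45 and 1.5 with shTRPS1#1 and 1.31, 1.3 and 1.22 with shTRPS1#2. It was 1.27, 1.3 and 1.25 with shNT, so the shTRPS1#1 libraries alone stood apart. For them the permutation test gave p = 0.1, its smallest possible value (adjusted p = 0.15).

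The start windows of the receptor pair that fell together are shown for the RefSeq start nearest the gene's annotated 5′ end, with capitals as above.
BOC, chr3:113211307-113211606, plus strand: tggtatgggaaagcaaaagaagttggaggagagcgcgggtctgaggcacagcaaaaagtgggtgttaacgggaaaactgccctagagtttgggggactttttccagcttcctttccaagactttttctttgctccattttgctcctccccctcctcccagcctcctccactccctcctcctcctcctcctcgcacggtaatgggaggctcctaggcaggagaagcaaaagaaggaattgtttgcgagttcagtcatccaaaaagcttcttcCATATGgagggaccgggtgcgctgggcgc
CDON, chr11:126063252-126063551, minus strand: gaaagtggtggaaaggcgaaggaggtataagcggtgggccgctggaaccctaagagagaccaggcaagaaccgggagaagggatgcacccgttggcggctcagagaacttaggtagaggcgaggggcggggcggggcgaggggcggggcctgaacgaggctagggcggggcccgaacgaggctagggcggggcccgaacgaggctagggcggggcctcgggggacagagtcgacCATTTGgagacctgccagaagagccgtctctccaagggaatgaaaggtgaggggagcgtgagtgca
Each held 1 E-box, CATATG at position 21 in the BOC window and CATTTG at position -16 in the CDON window, and no GATA match. Of the windows at their other RefSeq starts, a CDON window farther into the gene (chr11:126059313-126059612) held 1 GATA match, TATC at -40, and 2 E-boxes, CACCTG at -225 and CATATG at -82, and the others held neither motif.

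Among 29 relatives and direct partners of the adhesion genes, of which 22 were measured, 2 rose and 5 fell for shTRPS1#1, and for shTRPS1#2 the counts were 2 and 3 (median log2 fold change -0.08 and -0.03). Among all genes tested the shares higher and lower were 7.1% and 6.33% for shTRPS1#1 and 9.01% and 9.87% for shTRPS1#2. The count that fell for shTRPS1#1 was 3 without shNT replicate 2 and 2 without shTRPS1#1 replicate 1 or 3, and 1 rose for shTRPS1#2 without shNT replicate 3. GAS1, another Hedgehog co-receptor, fell with both hairpins: it was at 693.4 ± 18.1 CPM with shTRPS1#1 and 631.9 ± 11.7 CPM with shTRPS1#2, against 752.4 ± 14.7 CPM with shNT (SD, n = 3 each; log2 fold changes -0.12 ± 0.03 and -0.25 ± 0.03; edgeR adjusted p = 0.00486 and 7.94e-09). PTCH1, the Hedgehog receptor and itself a target of the pathway, was at 43.5 ± 2.73 CPM with shTRPS1#1 and 42.3 ± 1.3 CPM with shTRPS1#2, against 49.1 ± 1.29 CPM with shNT (-0.18 ± 0.05 and -0.22 ± 0.05; edgeR adjusted p = 0.0072 and 0.000655). For shTRPS1#1, leaving out its replicate 1 ended the GAS1 call (edgeR adjusted p = 0.0558) and leaving out its replicate 3 the PTCH1 call (-0.12, edgeR adjusted p = 0.143). Tested with limma on RPKM, PTCH1 was not called for either hairpin (adjusted p = 0.112 and 0.119 for shTRPS1#1, 0.0592 and 0.0638 for shTRPS1#2). The p38 kinase MAPK14, which acts downstream of CDON in mouse myoblasts, rose with both (0.16 ± 0.04 and 0.17 ± 0.04; edgeR adjusted p = 0.00188 and 0.000619).

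**Figure D4:**
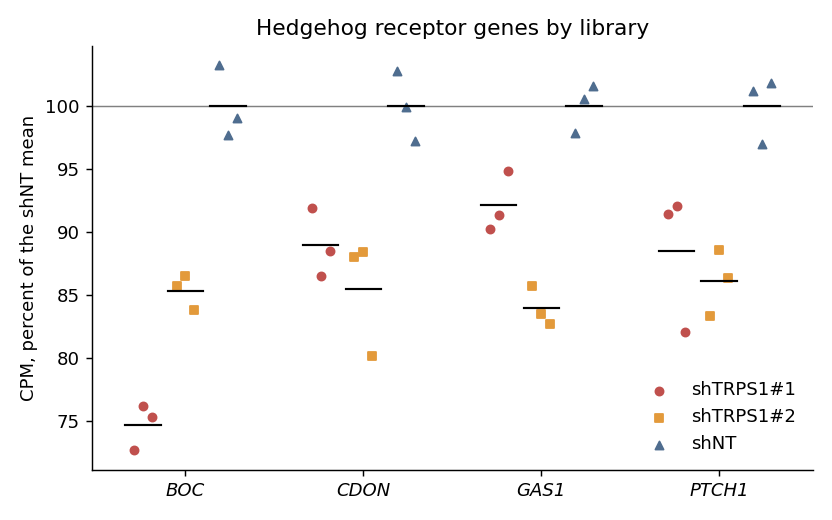
CPM as a percent of the shNT mean for the Hedgehog co-receptor genes BOC, CDON and GAS1 and the receptor gene PTCH1; symbols are libraries and bars are means of 3. All hairpin libraries lie below all shNT libraries, a separation whose share over all genes was not computed. BOC is lowest with shTRPS1#1 (74.7% of shNT by the fitted fold) and GAS1 is lower with shTRPS1#2 than with shTRPS1#1.

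NCAM1 (ENSG00000149294, chromosome 11, 112961247 to 113278436), the adhesion molecule CD56 that marks human myogenic cells, was among the most counted genes of the set. It was at 562.4, 562.4 and 551.8 CPM in the shTRPS1#1 libraries and 569.2, 581.1 and 543.8 CPM in the shTRPS1#2 libraries, against 509.0, 481.2 and 485.9 CPM in the shNT libraries. All hairpin libraries were above shNT, by a small amount. NCAM1 rose by 0.18 ± 0.03 on the log2 scale for shTRPS1#1 (edgeR adjusted p = 1.75e-05) and by 0.20 ± 0.03 for shTRPS1#2 (edgeR adjusted p = 3.34e-06), and the hairpins lay 0.02 apart (95% interval -0.05 to 0.08, edgeR adjusted p = 0.805). NCAM1 is also expressed by neurons: the 8 neuronal and neuroendocrine markers summed to 32.6 to 35.7 CPM with shTRPS1#1, 32.2 to 34.6 CPM with shTRPS1#2 and 32.5 to 33.1 CPM with shNT, ranges that overlap.

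**Figure D5:**
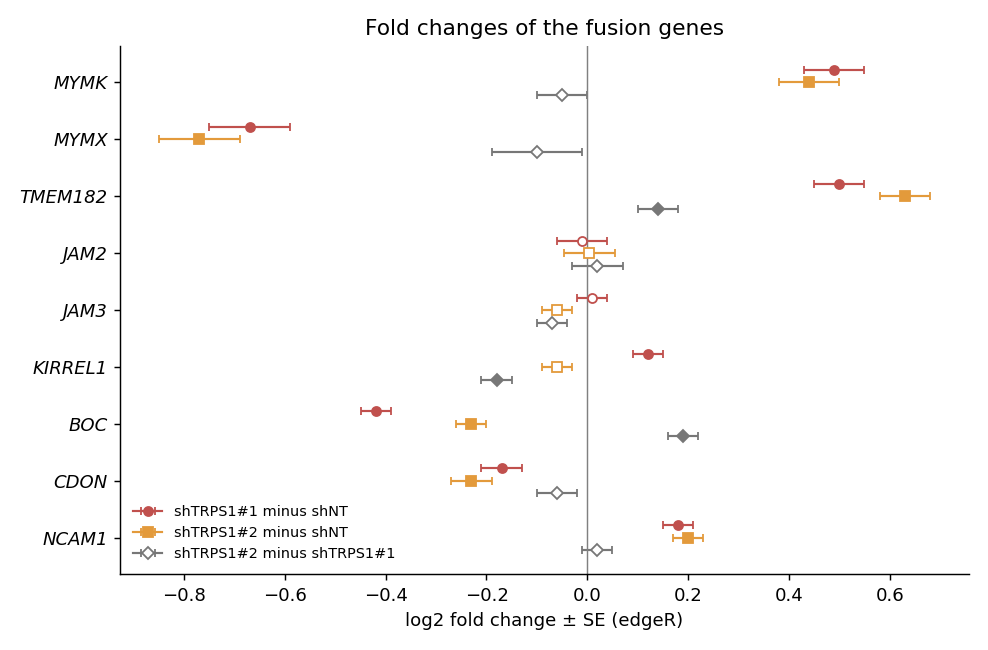
Log2 fold change (x axis, edgeR, bars are SE) of the 9 tested genes for each hairpin over shNT and for shTRPS1#2 over shTRPS1#1; filled symbols passed an adjusted p of 0.05. The hairpins differ for TMEM182 (0.14), KIRREL1 (-0.18) and BOC (0.19), and MYMX has the largest changes, -0.67 and -0.77.

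Fusion also needs machinery inside the cell that remodels actin at the contact site. Of 40 adaptors, GTPases and actin nucleators, all of which were measured, 2 rose and 5 fell for shTRPS1#1, and for shTRPS1#2 the counts were 3 and 4 (median log2 fold change -0.01 and 0.0048, beside 0.0011 and -0.01 over all genes tested). Each hairpin thus called 7 of the 40, where 13.4% of all genes tested were called for shTRPS1#1 and 18.9% for shTRPS1#2. When single libraries were left out, the counts ran from 1 to 3 higher and 2 to 5 lower for shTRPS1#1 (lowest without its replicate 3), and from 2 to 6 higher (highest without shTRPS1#2 replicate 3) and 2 to 4 lower for shTRPS1#2. ELMO1, which works with DOCK1 to activate RAC1, fell with both hairpins (-0.27 ± 0.05 and -0.54 ± 0.05), as did WASF1, a subunit of the actin-nucleating WAVE complex (-0.17 ± 0.05 and -0.19 ± 0.05). DESeq2 did not call WASF1 for shTRPS1#1 (adjusted p = 0.0807), nor did edgeR without shNT replicate 1 or 2 or shTRPS1#1 replicate 3 (adjusted p = 0.0633, 0.0599 and 0.0965). BIN1, a membrane-bending protein of T-tubules, rose (0.12 ± 0.03 and 0.27 ± 0.03), though leaving out shTRPS1#1 replicate 3 ended its call for that hairpin (edgeR adjusted p = 0.0504).

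Other surface and membrane proteins of fusion changed in both directions as well. Of 32, 29 were measured, of which 5 rose and 6 fell for shTRPS1#1, and for shTRPS1#2 the counts were 5 and 4 (median log2 fold change -0.02 and 0.00014). Over all genes tested, 7.1% were higher and 6.33% lower for shTRPS1#1, and 9.01% and 9.87% for shTRPS1#2. Caveolin 3, CAV3, rose (0.84 ± 0.08 and 0.92 ± 0.08), as did the ferlins MYOF (0.21 ± 0.03 and 0.30 ± 0.03) and DYSF (0.21 ± 0.03 and 0.39 ± 0.03), which serve membrane fusion and repair. The metalloprotease ADAM12 fell (-0.24 ± 0.04 and -0.28 ± 0.04). The integrin subunit ITGA9 was called lower with shTRPS1#1 (-0.16 ± 0.04) and higher with shTRPS1#2 (0.12 ± 0.04), and limma on RPKM made neither call. DESeq2 did not make the shTRPS1#2 call (adjusted p = 0.101). Its shTRPS1#1 call was lost without shNT replicate 1 or shTRPS1#1 replicate 3 (edgeR adjusted p = 0.0533 and 0.102), and its shTRPS1#2 call without shNT replicate 2, shNT replicate 3 or shTRPS1#2 replicate 2 (edgeR adjusted p = 0.0868, 0.236 and 0.386). Beside these, the myotube markers MYH8 (perinatal myosin; 1.35 ± 0.05 and 0.83 ± 0.05), MYH3 (embryonic myosin; 0.72 ± 0.03 and 0.69 ± 0.03), TTN (titin; 0.62 ± 0.04 and 0.92 ± 0.04) and TNNT1 (slow troponin T; 0.49 ± 0.03 and 0.65 ± 0.03) rose.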

How the data were processed

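The 9 poly(A) RNA libraries of RD cells were made from 180 ng of total RNA, per the labels' protocols. The authors deposited raw read counts per Ensembl gene, and RPKM values that equal those counts over gene length and library total (largest relative deviation 2.6e-14). Tools named in the submitters' processing notes are STAR 2.7.2b, bcl2fastq 2.20.0.422 and featureCounts 1.6.5, with build GRCh38; annotation release, strand setting and handling of multiply aligned reads were not given in the sources used here. Symbols came from a table that named 60357 of 60676 identifiers, positions from GENCODE release 29 and promoter windows from RefSeq (GRCh38.p14). No pair of libraries in a group was alike to within sampling noise (chi-square per degree of freedom 1.27 to 2.84).

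Counts were tested with edgeR 4.0.16 in R 4.3.3 (quasi-likelihood test, expression filter at a minimum of 10 counts, TMM scaling, 1 mean per group, all 9 libraries, 6 residual degrees of freedom). P-values were adjusted by Benjamini-Hochberg over 17014 genes, and genes were called under 0.05. Separation of libraries between groups is described gene by gene, and the share of all genes that separate was not computed. SE is the absolute log2 fold change over the square root of F, and 95% intervals are normal intervals from it; both are approximate. Alternatives used limma 3.58.1 on log2(RPKM + 0.1) or log2(RPKM + 1), and DESeq2 1.42.0. The fit was tested on simulated data. The members and lists were chosen with earlier results of these data known. Besides the members and TRPS1, the text names, per list, up to 4 genes called alike by both hairpins (by the smaller change) and up to 2 called oppositely, all measured transcription factors, and the 3 genes closest to each fusogen.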

Additional observations from a re-analysis of the deposited data

Results flagged for a closer look

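Both hairpins target TRPS1, yet the direct comparison of shTRPS1#2 with shTRPS1#1 called 3 of the 9 fusion genes tested, where 19.6% of all genes were called. BOC was higher with shTRPS1#2 than with shTRPS1#1 (0.19 ± 0.03, edgeR adjusted p = 2.59e-05), being at 186.1 ± 3.01 and 162.9 ± 4.01 CPM (SD, n = 3 each). KIRREL1 was lower with shTRPS1#2 (-0.18 ± 0.03, edgeR adjusted p = 4.77e-05), at 198.4 ± 3.19 against 225.1 ± 6.83 CPM. TMEM182 was higher with shTRPS1#2 (0.14 ± 0.04, edgeR adjusted p = 0.0207), at 69.9 ± 0.701 against 63.6 ± 4.56 CPM, a difference that did not keep its call in every setting. TRPS1 itself was at 57.4 ± 1.39 CPM with shTRPS1#2 and 57.8 ± 3.42 CPM with shTRPS1#1.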

How the results depend on the processing

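Over 17 alternatives and 3 contrasts, 444 of 459 fold changes of the fusion genes kept their direction and their side of the threshold, 8 lost their call and 7 changed sign. MYMK, MYMX, TMEM182, BOC, CDON and NCAM1 kept their calls against shNT in every alternative, MYMX between -0.74 and -0.60 with shTRPS1#1 and between -0.84 and -0.69 with shTRPS1#2, and MYMK between 0.45 and 0.56 and between 0.40 and 0.51 for the same hairpins. Between the hairpins (shTRPS1#2 minus shTRPS1#1), 2 genes were called higher, against 1 with DESeq2 and with limma on log2(RPKM + 0.1) or log2(RPKM + 1), and 1 to 2 when a library was left out: TMEM182 lost its call there, at 0.09 to 0.15. The 7 sign changes were of uncalled values near 0, each on leaving out a library: JAM2 ran from -0.04 to 0.03 for shTRPS1#1, from -0.02 to 0.03 for shTRPS1#2 and from -0.02 to 0.04 between the hairpins, where MYMK ran from -0.12 to 0.02 and NCAM1 from -0.0013 to 0.05. The cause was not tested.

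Library numbers repeat in the 3 groups, and the labels do not say that they mark a shared batch. Deviations from the group means correlated between -0.0161 and 0.0476 for same-numbered libraries and between -0.0558 and 0.0423 for others. Pairs numbered 1 were all positive (0.0359 to 0.0476), as were pairs numbered 3 (0.0148 to 0.0201). Pairs numbered 2 were not (-0.0161 to -0.000287). Across groups, libraries 1 and 3 correlated negatively (-0.0558 to -0.0179) and libraries 2 and 3 positively (0.00254 to 0.0423). All values were small, and whether the numbers mark a pairing cannot be told from them. With the number as a replicate block, 2505 genes were called with shTRPS1#1 (2285 without), 3434 with shTRPS1#2 (3213) and 3583 between the hairpins (3330), and the same number of fusion genes in each contrast. The median of all genes stayed between -0.01 and 0.01 under the other scalings. MYMX, at 200 to 422 reads a library, had the largest SE of the 9 fusion genes tested, and NPHS1 lay below the depth needed for any comparison.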
